A study of Mus with 2 samples.

Results

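The inner margin of 1 rIL7-treated tumor section was described as the spots that lie 3 to 5 grid steps inside its outer outline. These rings held 426 spots, which were 22.1% of the 1929 spots in the largest connected piece of that section, out of 4172 spots under tissue in both sections of the series. Membership used position alone. Step 1 was a tissue spot touching a non-tissue position, each further ring added 1 step, and inner holes did not count as outline. The rings were compared with the outer rim (steps 1-2, 330 spots) and with the core (steps 12 and more, 506 spots), with steps 6-11 (667 spots) in between. The deepest spots lay at step 21.

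Both sections came from CT26 tumors, a colon carcinoma line grown under the skin of balb/c mice aged 6-8 weeks, and the tumors were collected on day 15. The rIL7 mouse had received 10 µg of recombinant mouse IL7 into the abdomen on days 11 and 13, and the control section carries the label PBS. RNA was read with Visium, in which a frozen 10 µm section lies on a grid of barcoded capture spots. Each group is 1 section, so animal, section and treatment cannot be told apart, no test was possible and no p-value is given.

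A subcutaneous tumor is bounded by host connective tissue, and lymphocytes, monocytes and fibroblasts commonly gather along that border, while cells further inside are more often short of oxygen. IL-7 is a cytokine that keeps T cells alive. Macrophages take on different states along such gradients, and Pf4, a CXC chemokine also called CXCL4, is made by platelets and by some tissue macrophages. A spot can hold several cells of different types, so a level is that of a small area, and fewer cells of a type and less RNA per cell cannot be told apart.

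**Figure D1:**
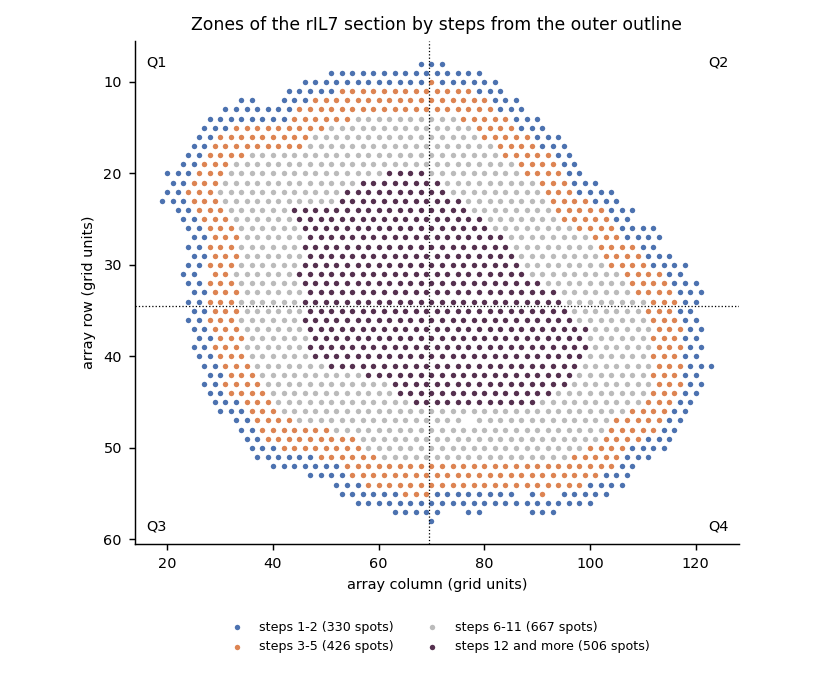
Position of every spot in the largest piece of the rIL7 section by array column and array row (grid units), coloured by steps from the outer outline; dotted lines cut the piece into quadrants Q1 to Q4 at the median row and column. The 426 spots of steps 3-5 form a closed band between the 330 spots of the rim and the interior.

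The rings held 5200685 UMIs (unique molecular identifiers, each a captured RNA molecule), with a median of 11943.5 per spot. The rim had a median of 11165.5, steps 6-11 had 12151 and the core had 15552.5, so core spots were the deepest. The control section had the other order, with 10621 in the same rings and 8571 in the core. Mitochondrial genes took 0.153% of UMIs in the rings, 0.233% in the rim and 0.120% in the core. Levels are counts per 1000000 UMIs (CPM) summed over a zone, intervals are 95% intervals that cover counting error only, and as a description of spread each value was also computed in 4 quadrants, which are not replicates. The sections share 1702 spot barcodes, which name positions of the capture grid and not cells.

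Most genes had similar levels in the rings and in the core. Among the gene lists, type I interferon, MHC class II and interferon GTPase genes had the most members higher in the rings, with 8, 7 and 7, and hypoxia and matrix protease genes the most members lower, with 5 and 4. Of 7605 genes that averaged 20 CPM or more over the rings and the core, 180 (2.37%) were at least 1.5-fold higher in the rings and 93 (1.22%) at least 1.5-fold lower. TMM scaling gave 135 higher and 122 lower. The median log2 ratio over all genes at this level was 0.03. The direction was the same in all 4 quadrants for 162 of the 180 higher genes and for 58 of the 93 lower genes. Of the 180 higher genes, 147 were lower in the rings than in the rim, 65 of them by 1.5-fold or more, so most lay on a slope running down from the outline. Of the 93 lower genes, 46 were below their rim level in the rings and 47 above it.

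In the control section the same rule gave 89 higher genes (1.17%) and 97 lower genes (1.28%) among 7591. The sections had 50 higher genes in common, which were 27.8% of those of the rIL7 section and 56.2% of those of the control. They had 37 lower genes in common, 39.8% and 38.1% of the respective lists.

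A dip was a level at least 1.5-fold below both the rim and the core, and a peak was the reverse. Among 7630 genes with a mean of 20 CPM over the 3 zones, 15 dipped (0.197%) and 1 peaked (0.0131%) in the rIL7 section. The count of dips was 8 without quadrant 4, of which 7 were among the 15, and 23 without quadrant 1, of which 14 were. In spots between the quartiles of UMI count of the piece 4 genes dipped, and 1 of them, Cacnb3, was among the 15, so 14 of the 15 lost the call there. With step 2 alone as the rim 13 genes dipped, of which 9 were among the 15. In the control section 0 of 7559 genes dipped (0%) and 0 peaked (0%). Within the rings of the rIL7 section, 178 of 7661 genes were at least 1.5-fold higher in step 3 than in step 5 (2.32%) and 149 were lower (1.94%). Counting error was not taken into account in these counts. It can carry genes near 20 CPM past the limit, so the counts do not measure how uneven the band was.

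**Figure D2:**
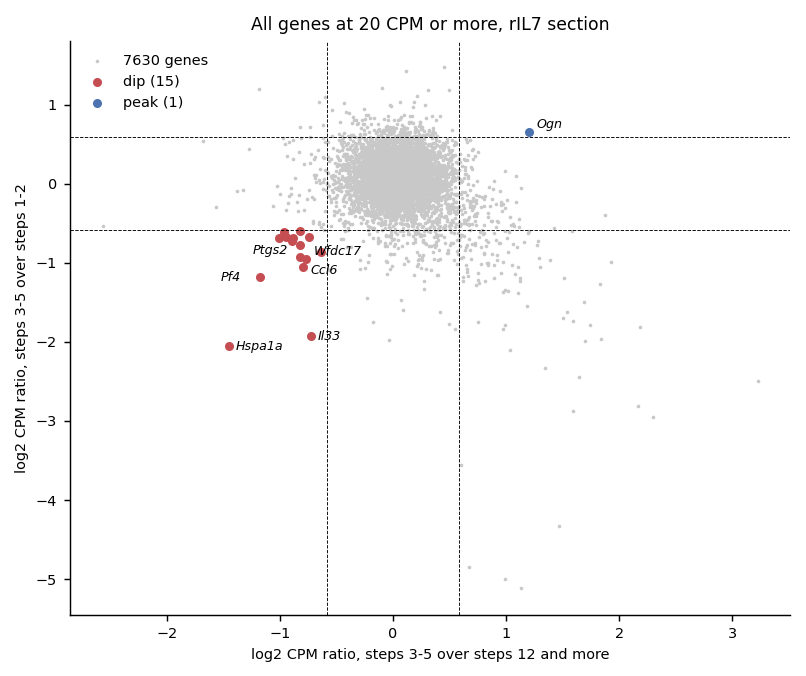
Each point is a gene averaging 20 CPM or more in the rIL7 section; the x axis is the log2 CPM ratio of steps 3-5 over steps 12 and more, the y axis that over steps 1-2, and dashed lines mark 1.5-fold. The 15 dips lie at the lower left, the single peak Ogn at the upper right, and the arm at the lower right holds genes that were highest in the rim.

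Pf4 had the deepest dip apart from the sparse gene Hspa1a. Its level was 389 CPM (369.9 to 409) in the rim, 172 CPM (161 to 183) in the rings, 224 CPM in steps 6-11 and 387 CPM (373 to 401) in the core. The rings were thus 2.27-fold below the rim and 2.25-fold (2.09 to 2.43) below the core. Ring by ring from the outline, Pf4 read 505, 289, 165, 152 and 201 CPM in steps 1 to 5. It then ran between 187 and 216 CPM from step 6 to step 9, and reached 259 CPM at step 10 and 290.3 CPM at step 11. The trough was therefore sharp on its outer side and broad on its inner side. Control levels were flatter, between 121 and 161 CPM over all steps, with 156 CPM in the same rings and 121 CPM in the core. Pf4 lies at chr5:90772435-90773383 (GRCm38).

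The outer side of the Pf4 trough was present in every quadrant and the inner side was not. Quadrant 1 (low rows, low columns) had 329 CPM in the rim, 143 CPM in the rings and 223 CPM in the core. Quadrant 2 (low rows, high columns) had 337, 141 and 337 CPM in the same order, and quadrant 4 (high rows, high columns) had 499, 204 and 681 CPM. In quadrant 3 (high rows, low columns) the rings were slightly above the core, with 409.6 CPM in the rim, 209 CPM in the rings and 193 CPM in the core. Over single spots the median of Pf4 was 146 CPM in the rings and 206 CPM in the core, and the highest spot read 804 CPM in the rings and 4325 CPM in the core, so some core spots far above the rest added to the core's summed level.

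The inner side of the trough also moved with the UMI count of the spots. Among spots between the quartiles of UMI count (10025 to 16105 UMIs), Pf4 was 378 CPM in 113 rim spots, 178 CPM in 235 ring spots and 203 CPM in 240 core spots, a fold of 1.14 (1.02 to 1.28) to the core and 2.12 to the rim. In core spots at or under the median UMI count of the piece Pf4 was 206 CPM (126 spots), and in core spots over it 422 CPM (380 spots). In the rings the corresponding levels were 179 CPM (256 spots) and 165 CPM (170 spots), without the difference seen in the core. The part of depth in the inner side of the dip was not tested.

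**Figure D3:**
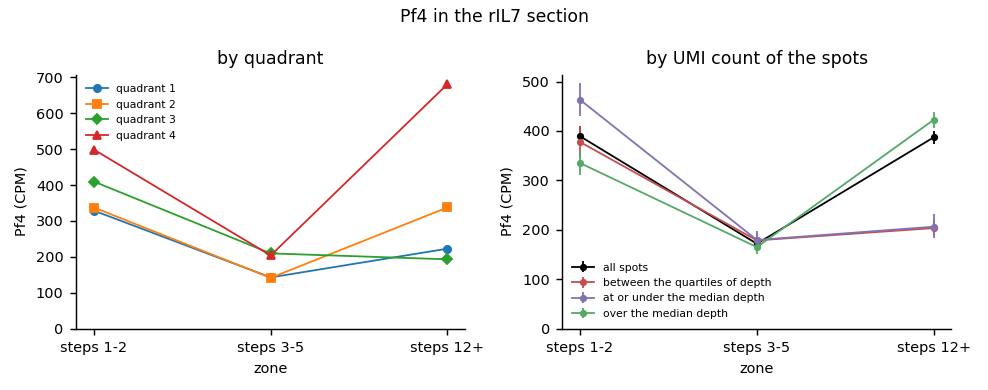
Summed Pf4 level (CPM) in steps 1-2, steps 3-5 and steps 12 and more of the rIL7 section, by quadrant (left) and by UMI count of the spots with 95% counting intervals (right). Every line falls from the rim to the rings, while the rise to the core is steepest in quadrants 2 and 4 and in spots over the median UMI count.

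The genes whose ring profile was most like that of Pf4, by Pearson correlation of log2 CPM over 12 bins of steps among 7659 genes, were Fabp5 (0.953), Ccl6 (0.951), Wfdc17 (0.948), Timp1 (0.929) and Rps27 (0.927). The bins share 1 library and its depth gradient, so these values are a description. Fabp5, Ccl6 and Wfdc17 were themselves dips, and all 3 are genes that myeloid cells can express.

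Ccl6, a CC chemokine of myeloid cells (chr11:83587886-83593087), was 242 CPM in the rim, 116 CPM in the rings and 201 CPM in the core, a fold of 1.73 (1.58 to 1.91) to the core. Its quadrants read 103, 133, 108 and 114 CPM in the rings and 103, 218, 107 and 340 CPM in the core, so quadrants 1 and 3 showed no rise to the core. Wfdc17, a secreted protein of activated macrophages (chr11:83704056-83706269), was 184, 95 and 161 CPM in the 3 zones, 1.70-fold (1.53 to 1.89) lower in the rings than in the core. Wfdc17 and Cacnb3, a calcium channel subunit, were the 2 of 15 dips whose ring level was below both rim and core in all 4 quadrants. Fabp5, a fatty acid binding protein (chr3:10012585-10016610), was 171, 103 and 192 CPM, a fold of 1.86 (1.68 to 2.05) to the core, and in quadrant 3 its ring level of 130 CPM was above the core's 98.5 CPM. Between the quartiles of UMI count the fold to the core was 1.003 for Ccl6, 1.07 for Wfdc17 and 1.08 for Fabp5. Their rim levels were highest in the outermost ring. From step 1 to step 2 Ccl6 fell from 333 to 163 CPM, Wfdc17 from 256 to 122 CPM and Fabp5 from 202 to 145 CPM. In control rings Ccl6 was 30.9 CPM against 50.6 CPM in the core, Wfdc17 was 49.3 against 31.0 CPM, and Fabp5 was 80.1 against 68.2 CPM.

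The metallothioneins Mt1 and Mt2, which bind zinc and copper and are neighbours on chromosome 8, had the highest levels of the dip genes. Mt1 was 2047 CPM in the rim, 1282 CPM in the rings and 2468 CPM in the core, 1.92-fold (1.87 to 1.98) lower in the rings than in the core. Mt2 was 970.5, 605 and 1119 CPM in the same order, a fold of 1.85 (1.77 to 1.93). Mt1 was lowest at step 5, with 939 CPM, after 2317 CPM at step 2. Between the quartiles of UMI count both genes were still lower in the rings than in the core, by 1.68-fold for Mt1 and 1.69-fold for Mt2, but the fold to the rim was 1.29 for Mt1 and 1.20 for Mt2, so neither was a dip there. In quadrant 3, however, Mt1 fell steadily inward, with 4061 CPM in the rim, 2029 CPM in the rings and 1422 CPM in the core. Mt1 in control was flat from rim (729.8 CPM) to rings (705 CPM) and reached 1556 CPM in the core.

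**Figure D4:**
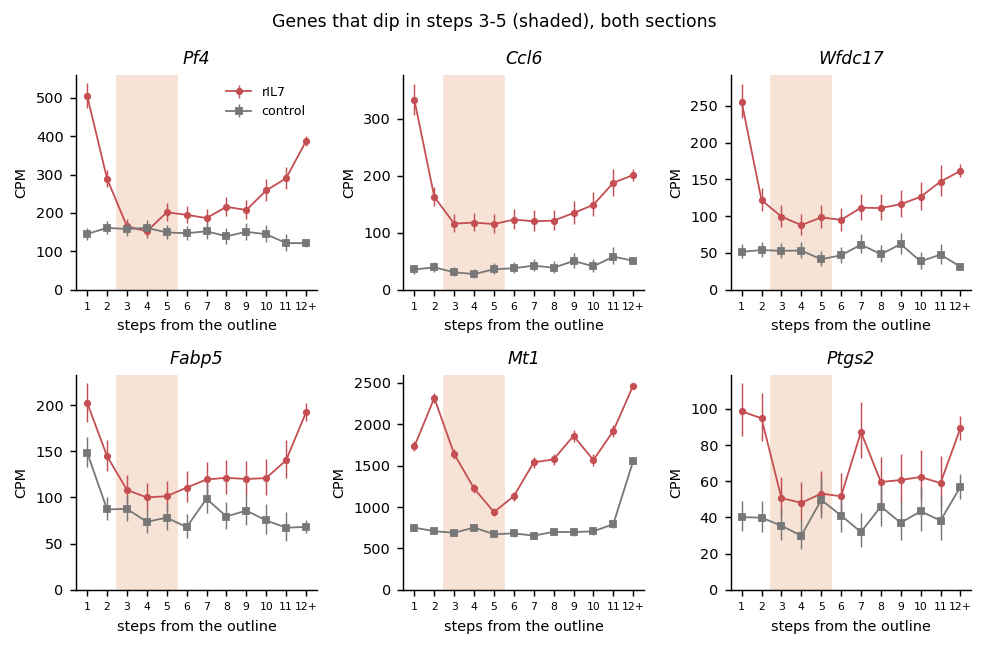
CPM of Pf4, Ccl6, Wfdc17, Fabp5, Mt1 and Ptgs2 by steps from the outline in the rIL7 and control sections, with 95% counting intervals; the shaded band is steps 3-5 and 12+ pools the core. Pf4 in rIL7 is 505 CPM in step 1, 152 CPM in step 4 and 387 CPM in the core, while control levels of Pf4 stay between 121 and 161 CPM.

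The 8 further dips besides Hspa1a had these levels. Ptgs2, the inducible cyclooxygenase of prostaglandin synthesis, was 96.6, 50.6 and 89.4 CPM in rim, rings and core, 1.77-fold (1.53 to 2.04) lower in the rings than in the core. Its quadrants ran from 26.2 to 76.4 CPM in the rings and from 53.8 to 146 CPM in the core, so they overlapped. Ier3, an immediate early gene, was 128, 79.8 and 160.2 CPM. Il33, an alarmin of the IL-1 family, was 76.2 CPM in the rim and 33.1 CPM in the core, 3.81-fold and 1.66-fold above the rings. Hypoxia-responsive Ndrg1 was 266, 176 and 311 CPM, and P4ha2, a collagen prolyl hydroxylase, was 39.0, 25.6 and 49.8 CPM. Apln, the ligand of the apelin receptor, was 48.7, 30.6 and 51.2 CPM. F13a1, the coagulation factor XIII A chain also made by macrophages, was 27.0, 15.8 and 27.9 CPM. Cacnb3 was 42.1, 23.1 and 35.8 CPM. Its rim level came mainly from step 1, with 62.8 CPM there and 24.2 CPM in step 2, close to the rings.

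Hspa1a, an inducible HSP70 chaperone, had the largest dip by ratio, on sparse counts. It was 51.2 CPM in the rim, 12.3 CPM in the rings and 33.6 CPM in the core, a fold of 2.73 (2.07 to 3.65) to the core. Only 64 UMIs stood behind the ring level, and 92.2% of them lay in 43 spots. These were the spots with the most Hspa1a, so with so few UMIs even scatter would give a high share too. In steps 6-11 it was lower still, at 9.80 CPM. The fold to the core was 1.19 (0.800 to 1.79) between the quartiles of UMI count and 1.006 in spots at or under the median. Its reads can be shared with the near-identical copy Hspa1b, so its level is uncertain. The dips just inside the 1.5-fold limit were Ndrg1 at 1.51 and P4ha2 at 1.52, each by the smaller of its folds to rim and core.

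The calls of most dips differed with the UMI count of the spots taken, and the part of depth was not tested. Between its quartiles the folds of the 15 genes to the core ran from 1.003 to 1.74, and 6 of the 15 counting intervals held 1 (Ccl6, Wfdc17, Fabp5, F13a1, Hspa1a and Il33). There 6 genes were past 1.5-fold to the core, namely Ier3, Mt1, Mt2, Ndrg1, Ptgs2 and Cacnb3, but only Cacnb3 was also past it to the rim, with 1.51 to the core and 1.96 to the rim. In spots at or under the median UMI count 8 of the 15 were past 1.5-fold to the core and 2 to both zones (Cacnb3 and Ptgs2). In spots over the median all 15 were past it to the core and 13 to both. Cacnb3 was not among these 13, with a fold of 1.24 to the rim. Against steps 6-11 in place of the core, 13 of 15 were lower in the rings. Only 2 genes dipped by 1.5-fold in that comparison, so the rings differed less from the tissue next to them than from the deep core.

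Ogn, which encodes the small proteoglycan osteoglycin of connective tissue (chr13:49608015-49624501), was the single gene past the limit for a peak. It was 24.5 CPM in the rim, 38.5 CPM in the rings, 33.9 CPM in steps 6-11 and 16.7 CPM in the core, 2.30-fold (1.84 to 2.89) above the core and 1.57-fold above the rim. By step it was 21.5 CPM at step 1, 46.9 CPM at step 5 and 27.4 CPM at step 10. The level came mainly from quadrants 2 and 4, with 40.5 and 81.1 CPM in the rings against 7.8 and 25.1 CPM in the core, whereas quadrant 1 had 10.2 CPM in the rings and 13.8 CPM in the core. The smaller fold of Ogn fell under the limit without quadrant 4 (1.36), between the quartiles of UMI count (1.33), with spots weighted equally (1.48), with inner holes as outline (1.47), with step 2 alone as the rim (1.42) and with steps 6-11 in place of the core (1.13). Control levels of Ogn were 13.8 CPM in the rings and 14.1 CPM in the core.

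The peaks next in size stayed under the limit and had low levels. Amot, a tight junction and Hippo pathway protein, was 21.2, 31.3 and 20.1 CPM in rim, rings and core. Ift74, a subunit of the intraflagellar transport complex, was 20.1, 29.4 and 18.3 CPM. Cyp51, an enzyme of cholesterol synthesis, was 32.1, 46.9 and 32.6 CPM, and Cenph, a kinetochore protein, was 19.6, 27.9 and 19.0 CPM. Tonsl, a replication repair factor, was 16.8, 26.9 and 18.7 CPM. Each of these rested on 140 to 244 UMIs in the rings. When a difference of 25% was enough, 100 genes peaked and 61 dipped.

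T cell transcripts were higher in the rings than in the core and lower than in the rim. The list of 16 T cell genes summed to 814 CPM in the rim, 442 CPM in the rings and 254 CPM in the core, a ratio of 1.74 (1.64 to 1.85) between rings and core. All 16 genes had a ratio above 1, and 3 of the 4 at 20 CPM or more passed 1.5-fold. The quadrants did not overlap, with 351 to 565 CPM in the rings and 236 to 340.3 CPM in the core. Trac, the T cell receptor alpha constant gene, was 33.7 CPM in the rings and 11.8 CPM in the core, 2.85-fold (2.21 to 3.70) higher. Cd8a was 25.8 against 11.2 CPM, a ratio of 2.31 (1.75 to 3.05). Cd4 fell from 30.3 CPM in the rim to 3.08 CPM in the rings, a low level that was still above its core level. The control ratio of the list was 1.17, with 212 CPM in the rings and 182 CPM in the core.

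Cytotoxic genes did not drop from the rim to the rings as steeply. The 10 cytotoxicity genes summed to 335 CPM in the rim, 298 CPM in the rings and 181 CPM in the core. Gzma, granzyme A, was 78.8, 101 and 60.9 CPM and so was highest in the rings, and Prf1, perforin, was 36.2, 39.2 and 28.5 CPM. Nkg7, a protein of cytotoxic granules, was 73.7, 50.4 and 23.2 CPM. Gzmb was 40.6 CPM in the rings and 37.2 CPM in the core, a ratio of 1.09 (0.909 to 1.31) whose interval holds 1. The NK cell list was 125 CPM in the rings and 57.0 CPM in the core, a ratio of 2.19 (1.94 to 2.48), with Ncr1 at 27.7 and 13.9 CPM.

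MHC class II presents antigen to CD4 T cells. All 7 of its genes at 20 CPM or more were past 1.5-fold, and the list summed to 8007 CPM in the rim, 3713 CPM in the rings and 2005 CPM in the core. H2-Aa was 442 CPM in the rings and 218 CPM in the core, 2.02-fold (1.90 to 2.16) higher, and H2-Eb1 was 494 and 249 CPM. H2-Aa declined through the band, with 543, 416 and 357 CPM in steps 3, 4 and 5. In the quadrants H2-Aa was 258, 466, 411 and 625 CPM in the rings and 227, 229.6, 292 and 168 CPM in the core, higher in the rings each time, by the least in quadrant 1. Between the quartiles of UMI count it was 421 and 227 CPM. H2-Aa in control was 381 CPM in the rings, 254 CPM in the core and 404 CPM in the rim, so the steep rim was not seen there. MHC class I genes summed to 12319 CPM in the rings and 10445 CPM in the core, a ratio of 1.18, with all 12 genes above 1 and 1 past the fold.

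Monocyte and interferon genes were higher in the rings than in the core in both sections. Ly6c2, a marker of inflammatory monocytes, was 67.0 CPM in the rim, 33.8 CPM in the rings and 8.91 CPM in the core, 3.80-fold (2.87 to 5.07) higher in the rings than in the core. Its control levels were 35.7 CPM in the rings and 11.4 CPM in the core, a ratio of 3.12. Ms4a4c, another monocyte gene, was 42.7 against 15.9 CPM, and its control ratio was 2.55. Type I interferon-stimulated genes summed to 1748 CPM in the rings and 1077 CPM in the core, a ratio of 1.62, with 8 of 10 genes at level past the fold, among them Ifi44 at 114 and 56.9 CPM. In control the ratio of this list was 2.04. Interferon-inducible GTPases and chemokines had a ratio of 1.53, with 7 of 12 past the fold, and a control ratio of 1.59.

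General macrophage genes differed little between rings and core, and genes of resident-like macrophages were lower in the rings. The macrophage list had 10603 CPM in the rim, 6523 CPM in the rings and 5353 CPM in the core. It thus also fell from the rim to the rings, and its ratio of rings over core was 1.22. Between rings and core 2 of 15 genes were past the fold (Aif1 at 1.71 and Fcgr1 at 1.61), and Mrc1, the mannose receptor, was 106 against 144 CPM. The list that holds Pf4 summed to 2923 CPM in the rim, 1112 CPM in the rings and 1435 CPM in the core. It was lower in the rings than in the core in all 4 quadrants, with a ratio of 0.775 (0.751 to 0.800). Pf4, F13a1 and Cbr2 passed the fold among its 8 genes at level. Ccl8, which held 42.6% of the ring UMIs of that list, was 1862 CPM in the rim but 474 CPM in the rings and 485 CPM in the core, so it showed only the outer side of the trough. Between the quartiles of UMI count the ratio of this list was 1.11, so the direction turned. In the control section it was 1.14.

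Stromal genes declined from the outline through the rings. Bgn, the proteoglycan biglycan (chrX:73483601-73495936), was 293 CPM in the rim, 84.8 CPM in the rings and 25.4 CPM in the core, 3.34-fold (2.82 to 3.97) higher in the rings than in the core, with a control ratio of 2.03. Col5a3, a fibrillar collagen chain, was 31.7 against 8.91 CPM, a ratio of 3.56 (2.68 to 4.77), and Col1a1 was 230 against 101 CPM. The collagen list had a ratio of 1.31, with 4 of 12 genes past the fold and 12 of 13 above 1. The sum of the fibroblast markers did not follow it, with 1063 CPM in the rings and 1177 CPM in the core, a ratio of 0.903. Its genes were split, with 6 of 12 above 1 and 6 below, and 1 past the fold in each direction. Gsn held 32.0% of the ring UMIs of that list.

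Ighg2b had the highest ratio among genes with the same direction in 4 quadrants, and its counts were patchy. This IgG heavy chain constant gene was 204 CPM in the rim, 36.3 CPM in the rings and 3.89 CPM in the core. It was 9.34-fold (6.36 to 14.1) higher in the rings than in the core. Of its 189 ring UMIs, 95.8% lay in the 43 spots that held the most of them. Igkc, the kappa light chain constant gene, was 695, 34.6 and 12.6 CPM. Constant genes of this family can share reads, so single values are uncertain. Plasma cell markers summed to 280.3 CPM in the rim, 197 CPM in the rings and 193 CPM in the core, a ratio of 1.02 between rings and core. Sdc1 held 51.7% of the ring UMIs of that list, and only 3 of its 7 genes were measured. In the control section Igkc was at most 5.06 CPM in any step, yet the plasma cell list was 171, 176 and 175 CPM in rim, rings and core. The sum thus did not track the IgG and kappa genes, and where plasma cells lay was not tested. The B cell list was low, at 32.6, 11.7 and 7.16 CPM, a ratio of 1.64 (1.12 to 2.39).

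Other genes with high ratios were Clec12a, an inhibitory lectin receptor of myeloid cells, at 28.7 CPM in the rings and 11.7 CPM in the core, and Ms4a4b, a membrane protein of T cells, at 48.5 and 19.8 CPM. Plaat3, a phospholipid-modifying enzyme, was 36.5 and 13.9 CPM. All 3 were higher in the rings in 4 of 4 quadrants.

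Proliferation genes were at rim level in the rings and lower in the core. The 15 genes summed to 1749 CPM in the rim, 1727 CPM in the rings and 1337 CPM in the core, a ratio of 1.29 (1.26 to 1.33), with all 15 above 1 although only Mcm5, a subunit of the replicative helicase, passed 1.5-fold. Mki67 was 173 CPM in the rings and 129 CPM in the core, and Top2a, DNA topoisomerase II alpha, was 234 and 175 CPM. In control the ratio of the list was 1.07. The CT26 tumor markers Baiap2l1 and Rpl39l had lower levels in the rim than in the rings: Baiap2l1 was 451, 654 and 701 CPM in rim, rings and core, and Rpl39l was 306, 354 and 413 CPM.

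**Figure D5:**
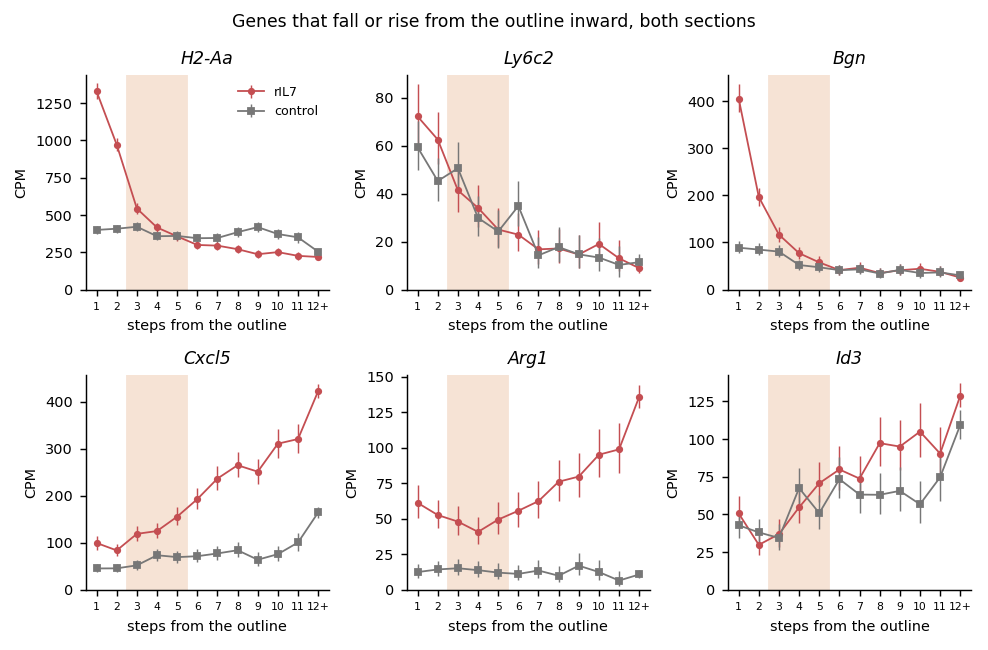
CPM of H2-Aa, Ly6c2, Bgn, Cxcl5, Arg1 and Id3 by steps from the outline in the rIL7 and control sections, with 95% counting intervals; the shaded band is steps 3-5. H2-Aa and Bgn in rIL7 drop steeply from step 1 through the band, and Cxcl5 in rIL7 is 119 CPM in step 3 and 423 CPM in the core.

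Cxcl5, a neutrophil-attracting chemokine, had the lowest ratio among genes with the same direction in 4 quadrants. It was 91.2 CPM in the rim, 132 CPM in the rings, 261 CPM in steps 6-11 and 423 CPM in the core, 3.19-fold (2.94 to 3.47) lower in the rings than in the core. The quadrants read 93.0, 144, 187 and 99.7 CPM in the rings and 523, 538, 229 and 341 CPM in the core, without overlap. Cxcl5 lies at chr5:90759298-90761625, near Pf4 on the same chromosome. It read 99.8 CPM in step 1, 83.9 CPM in step 2 and 156 CPM in step 5, and so was already above its rim levels in the band where Pf4 was lowest. Between the quartiles of UMI count Cxcl5 was 133 CPM in the rings and 391 CPM in the core. Control levels were 64.6 CPM in the rings and 165 CPM in the core, the same direction at a lower level.

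Arg1, the arginine-degrading enzyme of some macrophages (chr10:24915207-24927470), was 56.6 CPM in the rim, 46.0 CPM in the rings and 136 CPM in the core, 2.96-fold (2.57 to 3.41) lower in the rings than in the core. The quadrants were 61.5, 38.1, 58.3 and 28.7 CPM in the rings and 97.5, 116, 97.7 and 206 CPM in the core. It was 54.0 and 94.05 CPM between the quartiles of UMI count, a smaller difference. Arg1 in control was low throughout, with 13.8 CPM in the rings and 10.8 CPM in the core. Nos2, the inducible nitric oxide synthase, was 5.58 CPM in the rings and 10.5 CPM in the core.

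Id3, an inhibitor of helix-loop-helix transcription factors, was 53.4 CPM in the rings and 129 CPM in the core, 2.41-fold (2.11 to 2.76) lower, and nearly the same in control with 50.4 and 109 CPM. Scube3, a secreted signalling protein, was 8.92, 20.4 and 46.2 CPM in rim, rings and core. Nrcam, a cell adhesion molecule, was 12.5 CPM in the rings and 29.8 CPM in the core, and Prelp, a matrix proteoglycan, 76.3 and 150 CPM. Cemip, a hyaluronan-degrading protein, was 46.3 and 89.6 CPM. The kinase gene Jak2 was 80.4 and 153 CPM, and Mir22hg, the host transcript of a microRNA, 13.8 and 27.1 CPM. These 7 genes were lower in the rings in 4 of 4 quadrants.

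Hypoxia and glycolysis genes were lower in the rings than in the core, with 3889 against 5428 CPM, a ratio of 0.717, and 5 of 12 genes past the fold and 0 higher. Bnip3, a mitophagy gene induced by low oxygen, was 160.4 CPM in the rings and 334 CPM in the core, and Slc2a1, the glucose transporter GLUT1, was 130.2 and 233 CPM. The rim had 4135 CPM, so the rings were also slightly below the rim. The control ratio was 0.874. Matrix proteases had a ratio of 0.714, with Mmp3 at 292 against 538 CPM, Mmp12 at 85.6 against 223 CPM, Mmp10 at 22.5 against 42.9 CPM and Mmp13 at 92.7 against 160 CPM, while Mmp2 went the other way with 41.3 and 24.4 CPM. Its inhibitor gene Timp1 was 496 CPM in the rings and 635 CPM in the core.

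Inflammatory cytokine genes had a ratio of 0.658, with Cxcl1 at 24.0 against 60.4 CPM and Il1b at 159 against 179.9 CPM. The neutrophil list had a ratio of 0.725 in the rIL7 section and 0.475 in the control section. In 1 of 4 quadrants of the rIL7 section the rings were higher for the inflammatory cytokine list, and likewise for the neutrophil list. The control core of the neutrophil list ran from 122 to 1161 CPM over the quadrants. In the rIL7 section the neutrophil genes were split, with 5 of 9 measured genes above 1 and 4 below. The calprotectin chains S100a8 and S100a9 were the 2 past the fold, both lower, with S100a9 at 113 CPM in the rings and 225 CPM in the core. Hmox1, which degrades heme, had the lowest ratio of all genes named here, 0.169 (0.145 to 0.196), with 36.5 CPM in the rings and 217 CPM in the core. It was uneven, with 79.2, 250, 29.0 and 430 CPM in the core of quadrants 1 to 4, and in quadrant 3 the rings were higher, at 52.6 CPM. In spots between the quartiles of UMI count Hmox1 was 41.4 CPM in the rings and 88.6 CPM in the core, a ratio of 0.467, which was above that of Cxcl5. Spp1-type lipid macrophage genes had a ratio of 0.842, the CC chemokine list 0.794 and heme and iron genes 0.764. Lysosome genes were 7996 CPM in the rings and 8151 CPM in the core, a ratio of 0.981.

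Within the band, Cpxm1, a carboxypeptidase-like protein of connective tissue, was 44.1 CPM in step 3 and 8.13 CPM in step 5. The interferon-stimulated gene Ifi27l2a was 420.4 and 202 CPM, the chemoattractant gene Rarres2 126 and 58.2 CPM, and Ero1l, an oxidase of protein folding, 169.9 and 82.6 CPM. The hypoxia list names Ero1l by its other symbol Ero1a, which the matrix lacks, so only 17 of the 18 genes of that list were summed. In the other direction Id3 was 37.0 and 70.7 CPM, Golim4, a Golgi protein, 44.1 and 88.2 CPM, and Gng8, a G protein gamma subunit, 16.6 and 41.3 CPM.

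Genes of tissues that border a subcutaneous tumor were low in the rings. Skeletal muscle genes summed to 7.11 CPM, red blood cell genes to 2.31 CPM and keratinocyte genes to 35.0 CPM, of which 98.9% was Krt10. Adipocyte genes summed to 126 CPM, 96.0% of it Fabp4, against 237 CPM in the rim and 106 CPM in the core. Endothelial genes were 146 CPM in the rings, 137 CPM in the core and 273 CPM in the rim.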

How the data were processed

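RNA was measured with Visium on 1 section per group. The authors counted barcodes and genes with Space Ranger 1.1.0 against the mouse reference mm10, and deposited unnormalised UMI counts for each gene in each spot. Other deposited items, namely spot barcodes, gene identifiers, the in-tissue flag, array row and array column, were used as the authors gave them; image scale factors were not used.

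Spots under tissue with more than 200 genes and under 10% mitochondrial UMIs were kept (1950 of 1951 in the rIL7 section). The largest connected piece held 1929 of them and 25555127 UMIs, and 21 spots in 11 other pieces were left out. UMIs were summed per zone and divided by the zone total (CPM). Intervals are exact Poisson for a level and Clopper-Pearson (95%) for a ratio, and cover counting error only. With 1 section per group no test was run. Named genes were the 10 highest and 10 lowest ratios with the same direction in 4 quadrants, the 10 deepest dips and 10 highest peaks, H2-Aa, H2-Eb1, Pf4, Arg1, Rpl39l and Baiap2l1, members of reported lists, and the 5 profiles most like Pf4. The other 5 dips past 1.5-fold, and the genes named between step 3 and step 5, were chosen after their values were seen. The rings, lists and rules were chosen with earlier results of these data known. List sums include genes below 20 CPM, and some genes are in more than 1 list.

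Alternatives covered the spot filter, scaling (TMM of edgeR 4.0.16, median-of-ratios of DESeq2 1.42.0), spot weights, depth, ring bounds, outline, limits and leaving out a quadrant. Steps 6-11 in place of the core, step 2 alone as the rim and the split at the median UMI count were added after seeing the data. Calculations used Python 3.11.15, scipy 1.17.1 and R 4.3.3. The code for the calls was run on simulated counts with counting error alone and planted changes larger than 1.5-fold. Those counts had no patchiness, so they do not show how often the calls err in the section. Gene positions are those of RefSeq on GRCm38, matched by symbol for 7521 of 7605 genes (98.9%).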

Additional observations from a re-analysis of the deposited data

Results flagged for a closer look

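A pair of genes had opposite directions in the sections. Mmp13, a collagenase, had a ratio of 0.581 between steps 3-5 and steps 12 and more in the rIL7 section and 1.51 in the control section. Wfdc17 had a ratio of 0.588 in the rIL7 section and 1.59 in the control section. Both were lower in the rings in every quadrant of the rIL7 section and higher in every quadrant of the control section. Quadrants are parts of 1 section, so the difference between the sections was not tested. In rIL7 spots between the quartiles of UMI count the ratio was 0.704 for Mmp13 and 0.935 for Wfdc17, where the counting interval of the fold (0.911 to 1.26) held 1. Median UMIs per spot were higher in the core than in the rings in the rIL7 section and lower in the control section, and the part of depth in the contrast was not tested.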

How the results depend on the processing

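No paired analysis was possible because each group holds 1 section. The depth of a spot limits what these rings can show, since core spots held more UMIs than ring spots, and quadrants are parts of 1 section. Counts are given as higher, lower, dip and peak, where the reported values were 180, 93, 15 and 1, and list values are ratios of steps 3-5 over steps 12 and more. A minimum of 5 CPM gave 526, 205, 49 and 33 genes, a limit of 25% gave 717, 406, 61 and 100, and a limit of 2-fold gave 35, 13, 2 and 0. Dips and peaks were 8 and 3 with spots weighted equally, 4 and 6 between the quartiles of UMI count, and 26 and 6 with steps 4-5 as the band. Peaks were 2 with steps 3-6 and 2 with a core of steps 14 and more. With step 2 alone as the rim there were 0 peaks and 13 dips, of which 9 were among the 15. Leaving out a quadrant gave 161 to 230 higher, 81 to 124 lower, 8 to 23 dips and 2 to 8 peaks.

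The macrophage list (1.22 as reported) was 1.16 under TMM, 1.17 under median-of-ratios, 1.35 between the quartiles of UMI count, 1.17 with steps 4-5, 1.19 with steps 3-6, 1.2498 with a core from step 14 and 1.26 with holes as outline. The MHC class II list (1.85) was 1.77 under TMM, 1.78 under median-of-ratios, 1.69 between the quartiles, 1.64 with steps 4-5, 1.73 with steps 3-6, 1.79 with a core from step 14 and 1.71 with holes as outline. The collagen list (1.31) was 1.254 under TMM, 1.26 under median-of-ratios, 1.27 with equal weights, 1.22 between the quartiles, 1.27 with steps 4-5, and 1.28 both with steps 3-6 and with a core from step 10. The hypoxia list (0.717) was 0.684 under TMM, 0.690 under median-of-ratios, 0.790 between the quartiles, 0.684 with steps 4-5, 0.737 with a core from step 10 and 0.682 with holes as outline. The CT26 tumor list (0.905) was 0.864 under TMM, 0.871 under median-of-ratios and 0.937 with steps 3-6, and the T cell list (1.74) was 1.61 between the quartiles. These 6 lists kept their direction under these alternatives. Without 1 quadrant they ran from 1.13 to 1.32 (macrophage), 1.45 to 2.14 (MHC class II), 1.247 to 1.38 (collagen), 0.636 to 0.792 (hypoxia), 0.881 to 0.930 (CT26 tumor) and 1.57 to 1.84 (T cell).

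Steps 6-11 in place of the core left 82 higher, 24 lower, 2 dips and 0 peaks, with ratios of 1.42 (T cell), 1.19 (macrophage), 1.61 (MHC class II), 1.15 (collagen) and 0.862 (hypoxia). Directions turned there for the CC chemokine list (1.01), the lysosome list (1.02), Hspa1a (ratio 1.26, smaller fold of its dip 0.797) and Il33 (ratio 1.01, smaller fold 0.992). The direction turned between the quartiles of UMI count for the list that holds Pf4 (1.11) and the lysosome list (1.04), and the lysosome list also turned without quadrant 4, where leaving out 1 quadrant gave 0.952 to 1.05. The cause was not tested. The smaller fold of the Pf4 dip was 1.14 between the quartiles and ran from 1.53 to 2.38 without 1 quadrant.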
